A study of Mus musculus with 17 samples.

Results

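Eosinophils sorted from the esophagus were compared with eosinophils sorted from bone marrow in mice that lack Pirb and had been fed doxycycline (Dox). The comparison takes 6 of the 17 Affymetrix arrays of the series, chosen by their sample titles: 3 of esophageal eosinophils and 3 of marrow eosinophils, all from the knockout with Dox. All mice carried the CC10-IL13 transgene, in which the CC10 promoter, a promoter of airway secretory cells, drives interleukin-13 (IL-13) once Dox is given. Both groups were of the genotype CC10-IL13Tg/Pirb-/-, male and female, aged 6 to 8 weeks, and ate food with Dox for 2 weeks. The nearest comparison uses 3 esophageal and 3 marrow arrays of CC10-IL13Tg/Pirb+/+ littermates, also with Dox, and shares no array with it. Marrow arrays without Dox (3 knockout, 2 wildtype) enter no difference given here. The sort in every group took cells that stained for CD45, CCR3 and Siglec-F. The esophagus had been digested with collagenase and the marrow had been pushed through a needle, so the tissue and the way its cells were freed cannot be told apart. The labels do not say whether replicates are separate animals or pools, and p-values therefore measure only the spread between these samples, which may be technical.

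Eosinophils are granulocytes that mature in the marrow, where the genes of their cationic granule proteins are most active, and then leave through the blood for mucosal tissues. Interleukin-5 drives their production, eotaxins acting on the receptor CCR3 draw them into tissue, and IL-13, made in allergic inflammation, induces eotaxins in the esophagus. Paired immunoglobulin-like receptor B, encoded by Pirb, is a receptor of myeloid cells that carries inhibitory motifs in its tail.

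Values are log2 distances from the middle array of each probe set, so they give no level that can be compared between genes and cannot show whether a marker is present or absent. Within the 6 arrays, the esophageal values had SDs across genes of 0.51 to 0.53, and the marrow values 0.27 to 0.28. Each array correlated with the other arrays of its own group, with a mean r of 0.79 to 0.81 in the esophagus and 0.54 to 0.58 in the marrow, across genes, which are not independent replicates. Deviations from the group mean had SDs across genes of 0.178 to 0.199 in the esophagus and 0.146 to 0.153 in the marrow. The lower r in marrow thus does not mean a wider spread between its arrays. No array of the 6 stood apart. In the pooled RNA of sorted cells, fewer cells of a type and less RNA per cell cannot be told apart. Pirb itself was at 0.77, 1.20 and 1.02 in the esophageal knockout arrays and at -0.01, -0.79 and -0.39 in the marrow knockout arrays. The esophageal arrays were thus all above the marrow ones, by 1.40 ± 0.22 (SE, n = 3 and 3, adjusted p = 0.00842), and the call was lost after quantile normalization (adjusted p = 0.058). No source used here places the Pirb probes relative to the deletion, so these values check nothing about the labels, and the near-identical Pira genes could add to the signal.

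Of 22180 genes, 4451 (20.1%) passed an adjusted p of 0.05 in limma, and such genes are called below. In the esophagus 2158 genes (9.73%) were higher and 2293 (10.3%) were lower than in marrow. Counts of called list members below are to be read beside these shares of all genes. Among called genes, differences of at least 1 log2 unit were more often lower, with 572 genes (2.58%) higher and 1091 (4.92%) lower, and differences of at least 2 log2 units were found in 179 and 245 genes. The median difference was 0.56 among the higher and -0.97 among the lower calls, against 0.06 over all genes. In 9763 genes (44.0%) the 3 esophageal arrays lay wholly apart from the 3 marrow arrays, and all 4451 called genes were among them. Where arrays of a called gene are said below not to overlap, this therefore adds nothing to the call. An exact permutation test of a single gene over 3 and 3 arrays cannot go below p = 0.1. Leaving out a marrow array lowered the count to 2760 without replicate 1, 3021 without replicate 2 and 2804 without replicate 3, where 1111, 1250 and 1126 genes were higher. With all 17 arrays setting the spread, 2336 genes were called, of which 997 were higher. Rescaling the arrays changed the split, since 48.5% of calls were higher in the values as deposited, 40.7% after median centring and 40.5% after quantile normalization.

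The 12 largest increases among named genes ran from 6.16 to 4.33 log2 units and included secreted, receptor and enzyme genes. Serpinb2, which encodes the plasminogen activator inhibitor PAI-2, was at 6.08, 5.97 and 5.87 in the esophageal arrays and at 0.04, -0.30 and -0.28 in marrow. It was 6.16 ± 0.11 higher (adjusted p = 5.16e-06), a fold of 71.3 if the log base is 2. Ptgs2, the inducible cyclooxygenase of prostaglandin synthesis, was at 5.29, 5.30 and 5.18 against -0.50, -0.85 and -0.83, a difference of 5.98 ± 0.11. The arrays of the tissues did not overlap in either gene. Thbs1, the matrix protein thrombospondin-1, was 5.54 ± 0.15 higher, Acod1, the enzyme that makes itaconate, 5.46 ± 0.17, and Clec4e, the receptor Mincle for mycobacterial and damage-linked glycolipids, 5.22 ± 0.15. Ccrl2, a receptor that binds chemerin without signalling, was at 5.03, 5.12 and 4.88 in the esophagus and at -0.01, -0.20 and -0.16 in marrow, and was 5.13 ± 0.09 higher. Slc7a11, the cystine transporter that feeds glutathione synthesis, was 4.77 ± 0.19 higher. Btg2, an antiproliferative early gene, differed by 4.39 ± 0.23, with esophageal values of 3.50, 3.52 and 3.52 and marrow values from -1.25 to -0.35. Rnase2a, Il1a, Cxcl2 and Il1b, also among the 12, are given with their lists below. The 8 genes described here kept their call in each of the 16 alternatives that were run.

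The 12 largest decreases included granule protein genes, Camp, Ctsg, Mpo, Ngp, Prg3 and Elane among them, and genes of DNA replication and mitosis. Camp, the gene of the antimicrobial peptide cathelicidin, was at -6.11, -5.90 and -6.09 in the esophagus and at 0.05, 0.17 and 0.29 in marrow. The difference of -6.20 ± 0.09 (adjusted p = 4.93e-06) was the lowest of all genes. Fcnb, a ficolin of myeloid precursors, was at -5.52, -5.58 and -5.25 against 0.50, 0.40 and 0.38, and differed by -5.88 ± 0.10. The neutrophil serine protease gene Ctsg differed by -5.53 ± 0.10 and Mpo, the peroxidase of neutrophil granules, by -5.52 ± 0.17. Ms4a3, a membrane protein of granulocyte precursors, differed by -5.16 ± 0.12 and Mcpt8, a basophil protease, by -4.37 ± 0.16. Tipin, which stabilises stalled replication forks, fell by 4.33 with the widest spread of the 12 lowest genes, since esophageal replicate 3 was at -2.49 and the other two at -4.18 and -4.34. Kif11, a mitotic kinesin, and H1f5, a linker histone, differed by -4.33 ± 0.07 and -4.32 ± 0.12. Quantile normalization gives the arrays one shared distribution, while the centred esophageal values were spread more widely across genes than the marrow ones. Some pulling in of deep esophageal values is thus built into it. The differences became -4.17 for Camp, -3.49 for Ctsg, -3.53 for Mpo and -2.90 for Kif11, and all stayed called.

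**Figure D1:**
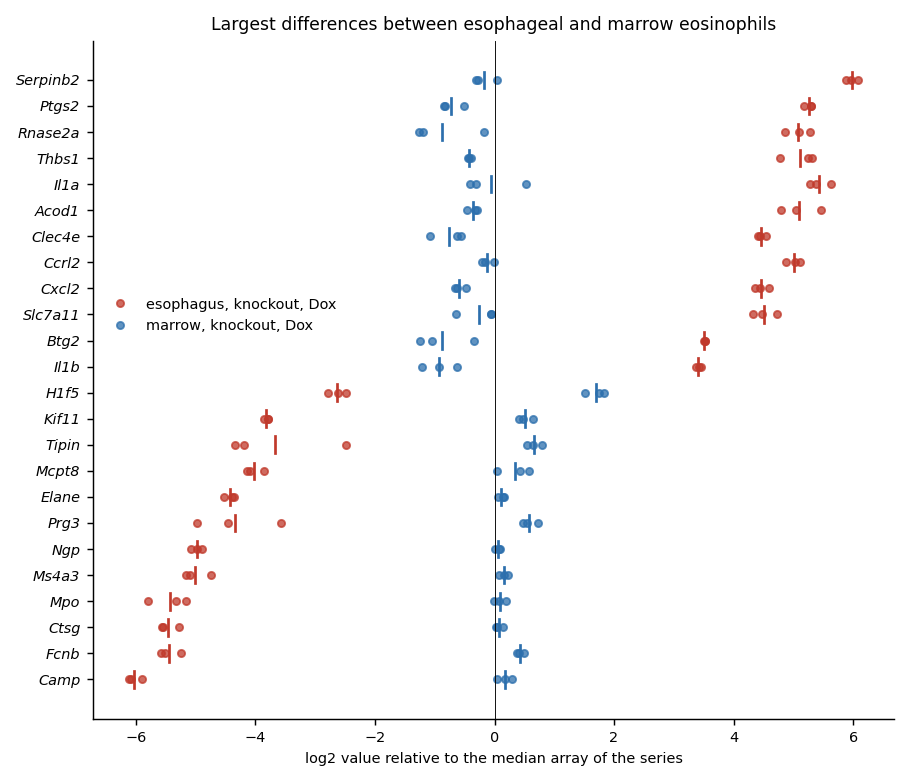
Each point is an array of knockout eosinophils with Dox (red, esophagus; blue, marrow; 3 each), and bars mark group means, for the 12 highest and the 12 lowest named genes; the x axis is the log2 value relative to the middle array. The genes run from Serpinb2 (difference 6.16) to Camp (-6.20). That the esophageal and marrow points do not meet in any of the 24 was a condition of their choice.

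The gate genes and most other surface genes of eosinophils were higher in the esophagus, while the granule genes were split. Of 16 identity and gate genes, 13 were called higher and 1 lower, with a median difference of 1.08. Siglecf, the sialic acid receptor of the gate, was at 0.77, 1.26 and 1.32 in the esophagus and at 0.02, -0.25 and 0.15 in marrow, a difference of 1.14 ± 0.18 (adjusted p = 0.00879). Ccr3, the eotaxin receptor of the gate, was 1.02 ± 0.10 higher and Ptprc, which encodes CD45, 1.02 ± 0.08 higher. Both lost their call when all 17 arrays set the spread (adjusted p = 0.308 and 0.492), and Ccr3 also when that fit left out the marrow array that stands apart from its group, replicate 3 of the knockout without Dox (adjusted p = 0.112). Il5ra, the interleukin-5 receptor chain, was at 2.26, 2.55 and 2.71 against 0.31, -0.87 and 0.78. Its difference was 2.44 ± 0.42 (adjusted p = 0.0121), the marrow arrays were spread over more than a log2 unit, and the call was lost after quantile normalization (adjusted p = 0.126). Csf2rb2, a beta chain of the interleukin-3 receptor, was 2.28 ± 0.24 higher, and the shared beta chain Csf2rb was at 0.89 ± 0.34 (adjusted p = 0.124). Alox15, the lipoxygenase of eosinophils, rose by 3.36 ± 0.25, with esophageal values from 3.20 to 3.52 and marrow values from -0.48 to 0.51. Adgre1, an adhesion receptor of eosinophils and macrophages, was 1.68 ± 0.12 higher. The gene called lower was Clec4a2, an inhibitory lectin receptor, at -1.03 ± 0.23.

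Of 9 granule protein genes, 3 were called higher and 5 lower, with a median of -0.44. Epx, the eosinophil peroxidase, had a mean of -2.07 ± 0.08 (SD, n = 3) in the esophagus and 1.43 ± 0.14 in marrow, where the lowest array was at 1.27. It fell by 3.50 (SE 0.09, adjusted p = 1.76e-05). Prg2, the major basic protein, was at -1.78, -1.40 and -2.72 against 0.27, 0.17 and 0.24, and fell by 2.19. Prg3, a homolog of Prg2, differed by -4.91 ± 0.34. The arrays of the tissues did not overlap in any of these genes, and esophageal replicate 3 was the lowest in both Prg2 and Prg3. Rnase2a, an eosinophil-associated ribonuclease of a family of near-identical copies, went the other way, at 5.09, 4.86 and 5.27 against -1.20, -0.17 and -1.26 (difference 5.95 ± 0.31). Ear10 of the same family differed by 0.08 ± 0.05 (adjusted p = 0.288), and single values of this family are uncertain because probes can read several copies. Among 18 regulators of the eosinophil lineage, 6 were called higher and 3 lower. Trib1, a pseudokinase that eosinophils need for their identity, was 3.11 ± 0.23 higher. Bhlhe40, a transcription factor of activated immune cells, was 2.70 ± 0.16 higher, and Cebpb, a factor of stress granulopoiesis, 1.45 ± 0.12. Ikzf2, which encodes Helios, was 1.89 ± 0.20 higher. Gata2 (0.39 ± 0.13, adjusted p = 0.0935) and Zfpm1 (0.49 ± 0.16, adjusted p = 0.086), of the GATA network, did not pass.

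Receptors for cytokines, for chemoattractants and for adhesion all held genes called in both directions. Of 23 receptors for type 2 and growth cytokines, 7 were called higher and 3 lower, with a median of 0.14. Il13ra1, a chain of the receptor that binds IL-13, was 0.59 ± 0.13 higher (adjusted p = 0.0248), and it lost its call in 8 of the 16 alternatives (adjusted p of 0.0515 to 0.342). Il4ra, its partner chain, differed by 0.13 ± 0.21 (adjusted p = 0.692). The decoy receptor gene Il1r2 was 2.54 ± 0.33 higher and Ifnar1, of the type I interferon receptor, 1.13 ± 0.20. Il17rb, a receptor chain for interleukin-25, was at -1.66 ± 0.51 and did not pass (adjusted p = 0.0713). Of 31 chemoattractant receptors, 12 were called higher and 1 lower. Ccr1, a receptor of CCL3 and related chemokines, was at 2.99, 2.58 and 2.79 in the esophagus and at -0.17, -0.34 and -0.24 in marrow, 3.04 ± 0.12 higher. Ptafr, the receptor of platelet-activating factor, was 2.77 ± 0.08 higher, and P2ry14, a receptor of UDP-glucose, 2.65 ± 0.21.

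Of 23 integrins and adhesion genes, 12 were called higher and 4 lower, with a median of 0.79. Itgax, which encodes CD11c, was at 2.89, 3.08 and 2.60 in the esophagus and at -0.15, -0.12 and 0.18 in marrow, a difference of 2.89 ± 0.15. Cd44, the hyaluronan receptor, was 2.27 ± 0.15 higher, and the beta-3 integrin gene Itgb3 2.23 ± 0.40, which lost its call without marrow replicate 3 (adjusted p = 0.0514). Vcam1, a ligand of alpha-4 integrins found on stromal cells and marrow macrophages, was at -3.14, -3.04 and -2.87 against 1.00, 0.78 and 0.88, a difference of -3.90 ± 0.10. Thus every esophageal array was below every marrow array in Vcam1, the reverse of most genes of its list.

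Receptors with inhibitory tails, the class of Pirb, were also divided. Of 20 paired inhibitory receptors and phosphatases, 8 were called higher and 5 lower. Lilrb4a, an inhibitory receptor of myeloid cells, was at 2.65, 2.60 and 2.47 in the esophagus and at -0.38, -0.82 and -0.22 in marrow, a difference of 3.04 ± 0.16. Cd300lf was 2.37 ± 0.19 higher, and Pecam1, an adhesion molecule with inhibitory motifs that endothelium also makes, 1.60 ± 0.18. Lair1, an inhibitory collagen receptor, was lower, at -1.28, -1.12 and -1.49 against 0.40, 0.06 and 0.08 (difference -1.48 ± 0.13). Inpp5d, which encodes the phosphatase SHIP-1, was at 0.58 ± 0.19 (adjusted p = 0.0824). Among 24 activating receptors and their adaptors, 7 were called higher and 2 lower. Besides Clec4e, Cd300ld rose by 3.78 ± 0.18, and Cd300lb and Clec4d by 2.74 each. Ms4a2, the beta chain of the high-affinity IgE receptor, differed by -1.76 ± 0.16. Of 26 pattern recognition and inflammasome genes, 6 were called higher and 3 lower, with a median of 0.02 that turned to -0.02 after median centring. Cd14, a co-receptor for lipopolysaccharide, was 1.81 ± 0.30 higher, and its call was lost in 2 of the 16 alternatives (adjusted p of 0.0501 to 0.051). Ly96, a partner of the lipopolysaccharide receptor, differed by -1.40 ± 0.22 and lost its call in 1 alternative (adjusted p = 0.053).

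**Figure D2:**
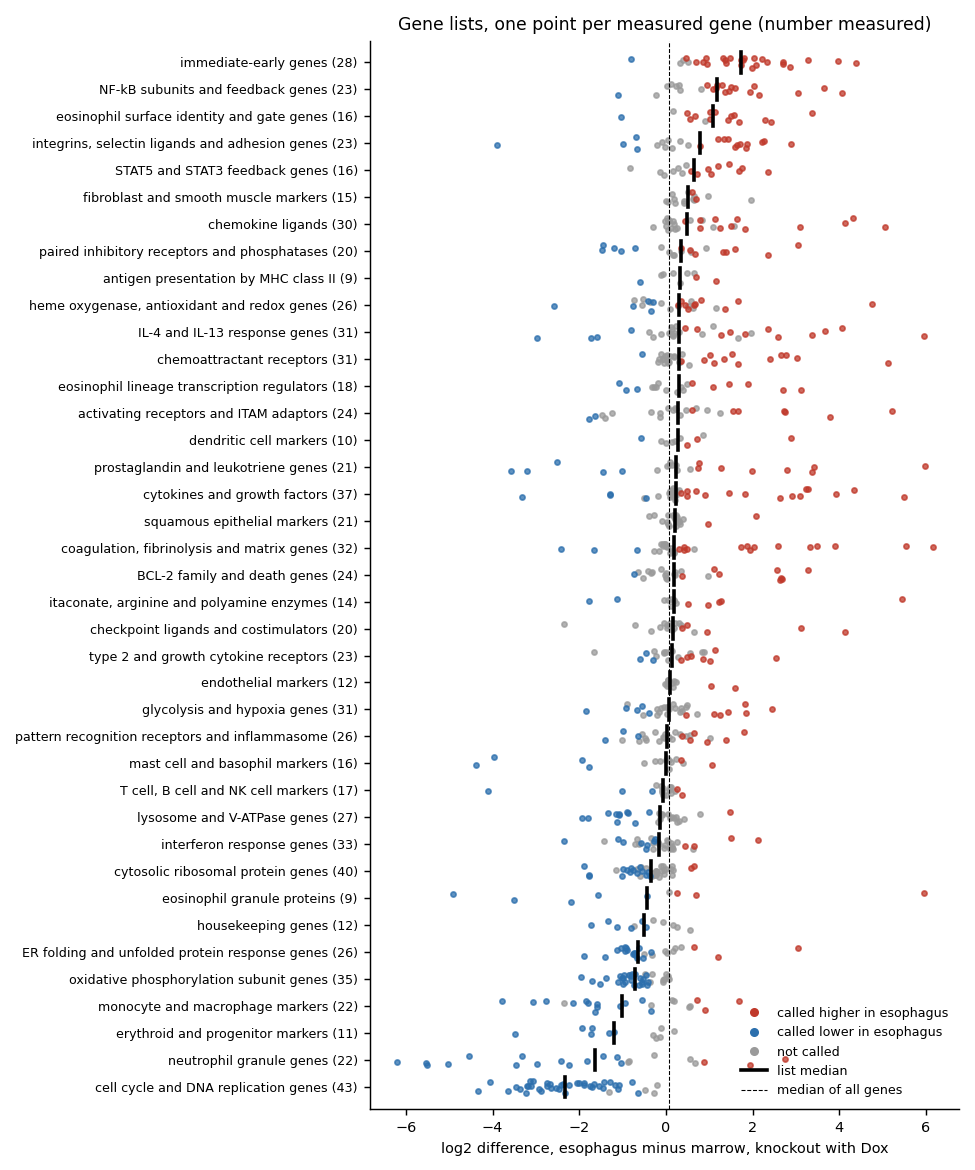
Each point is a measured gene of a list (number measured in brackets) and the x axis is its log2 difference, esophagus minus marrow; red, called higher; blue, called lower; grey, not called; the thick bar is the list's median and the dashed line the median of all genes (0.06). Medians run from 1.73 for immediate-early genes to -2.33 for cell cycle genes.

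Genes of NF-kB signalling and immediate-early genes were the lists with the highest medians. NF-kB is a family of transcription factors that inflammatory signals release into the nucleus, where it also induces its own inhibitors. Of 23 NF-kB subunits and feedback genes, 15 were called higher and 1, the kinase gene Ikbke, lower, with a median of 1.17. Tnfaip3, which encodes the feedback inhibitor A20, was at 4.16, 4.23 and 3.95 in the esophagus and at 0.33, 0.04 and -0.25 in marrow, 4.07 ± 0.16 higher (adjusted p = 6.62e-05). Nfkbiz, a nuclear cofactor, was 3.65 ± 0.18 higher and Birc3, a ubiquitin ligase of the pathway, 3.05 ± 0.09. Nfkbia, the inhibitor that holds NF-kB in the cytoplasm, had a mean of 2.03 ± 0.03 (SD, n = 3) against -0.12 ± 0.10 in marrow, and was 2.15 ± 0.07 higher. The arrays of the tissues did not overlap in any of these genes. Zc3h12a, an RNase that degrades cytokine mRNAs, was at 0.82 ± 0.26 (adjusted p = 0.0772).

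Of 28 immediate-early genes, which cells transcribe within minutes of a stimulus, 24 were called higher and 1, Myc, lower (-0.80 ± 0.19). Their median was 1.73. Nr4a1, an orphan nuclear receptor, was at 3.12, 3.15 and 3.06 against -0.15, -0.25 and -0.13, a difference of 3.29 ± 0.06. Nr4a3 of the same family was 3.98 ± 0.17 higher and Zfp36, which encodes the mRNA-destabilising protein tristetraprolin, 2.86 ± 0.14. Egr3 (0.52 ± 0.40, adjusted p = 0.397) and Maff (0.39 ± 0.15, adjusted p = 0.128) did not pass. Collagenase digestion was used for the esophagus only, and its part in these genes was not tested. Of 16 genes of STAT5 and STAT3 signalling and feedback, 9 were called higher and 0 lower. Cish, a feedback inhibitor that interleukin-5 signalling induces, was 2.37 ± 0.25 higher, Pim1, a survival kinase, 1.68 ± 0.10, and Stat6, the factor activated by IL-4 and IL-13, 1.75 ± 0.08. The Cish and Pim1 values depended on the probe set, at 1.46 and 2.94 with the lowest-numbered probe set alone. Stat6 lost its call when 12 Dox arrays set the spread (adjusted p = 0.0577).

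The proximal promoters of some of these genes are shown because they hold the NF-kB motif (GGG, any 2 bases, then TTTCC), searched on both strands in the 250 bases before each start (RefSeq sequences, GRCm38.p6). The motif was found in 4 of the 13 higher NF-kB genes that have a window (Nfkb2, Nfkbia, Rel and Tnfaip3) and in 4 of the 8 higher chemokine genes that have a window (Ccl9, Cxcl1, Cxcl2 and Cxcl3). Over all genes with a window, 1.654% held it, and among genes called higher by at least 1 log2 unit 5.393% did (24 of 445). The AP-1 motif TGANTCA was in 12.36% of these higher genes and in 7.819% of all genes. Of the 21 higher immediate-early genes with a window, 1 held the AP-1 motif (4.76%, below the share of all genes) and 2 held the cyclic AMP response element TGACGTCA (9.52%, beside 1.769% of all genes). A match describes the letters and not a bound site. In the sequences that follow, written 5′ to 3′ on the gene's own strand and ending at the base before the start, capitals mark the NF-kB motif. Nfkbia lies at chr12:55492648-55492897 (minus strand), with the motif 29 to 20 bases before the start. Tnfaip3 lies at chr10:19015411-19015660 (minus strand, 1 of 2 starts listed), with the motif 12 to 3 bases before it. Cxcl2 lies at chr5:90903649-90903898 (plus strand) with 2 motifs, the first 97 to 88 bases before the start, and Cxcl3 at chr5:90785851-90786100 (plus strand) with the motif 73 to 64 bases before it.
Nfkbia: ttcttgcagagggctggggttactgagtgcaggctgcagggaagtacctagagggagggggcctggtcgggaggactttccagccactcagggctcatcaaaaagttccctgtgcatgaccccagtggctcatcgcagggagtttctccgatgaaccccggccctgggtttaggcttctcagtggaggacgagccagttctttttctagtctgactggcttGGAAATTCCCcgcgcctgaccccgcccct
Tnfaip3: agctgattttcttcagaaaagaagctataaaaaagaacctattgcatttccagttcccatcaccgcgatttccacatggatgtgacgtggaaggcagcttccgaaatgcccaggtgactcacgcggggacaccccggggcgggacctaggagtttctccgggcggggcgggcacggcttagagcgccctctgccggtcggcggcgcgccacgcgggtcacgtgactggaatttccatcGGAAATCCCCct
Cxcl2: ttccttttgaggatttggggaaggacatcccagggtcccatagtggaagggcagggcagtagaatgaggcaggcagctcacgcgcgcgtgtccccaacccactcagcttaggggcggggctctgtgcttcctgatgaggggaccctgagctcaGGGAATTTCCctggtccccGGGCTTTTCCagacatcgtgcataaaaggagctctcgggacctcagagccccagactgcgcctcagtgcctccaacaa
Cxcl3: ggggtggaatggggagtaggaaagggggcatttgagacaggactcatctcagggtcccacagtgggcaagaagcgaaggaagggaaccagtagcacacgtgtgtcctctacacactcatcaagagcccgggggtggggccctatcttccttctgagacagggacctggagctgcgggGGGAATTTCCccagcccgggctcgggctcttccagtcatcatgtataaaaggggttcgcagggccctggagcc

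Secreted signals were higher in the esophagus in most called cases. Of 30 chemokine genes, 12 were called higher and 0 lower, with a median of 0.50. Cxcl2, a neutrophil attractant, was at 4.59, 4.44 and 4.36 in the esophagus and at -0.66, -0.63 and -0.48 in marrow, 5.05 ± 0.09 higher. Its neighbour Cxcl3, whose promoter is also printed above, was at 4.44, 3.68 and 3.86 against -0.16, -0.16 and -0.13 (difference 4.14 ± 0.19). Ccl3, a chemokine that draws leukocytes, was 4.32 ± 0.14 higher and Ccl6, a chemokine of myeloid cells, 3.10 ± 0.31. Ccl4, a chemokine of the same family, was at 1.04, 2.01 and 1.40 against -0.13, -0.39 and 0.02, a difference of 1.65 ± 0.26 (adjusted p = 0.0085). Cxcl10, induced by interferons, was 1.51 ± 0.19 higher. The eotaxin-2 gene Ccl24 was at 1.09 ± 0.83 (adjusted p = 0.391) and the platelet chemokine Ppbp at 1.58 ± 0.47 (adjusted p = 0.066), neither of which passed.

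Of 37 cytokines and growth factors, 15 were called higher and 4 lower. Il1a and Il1b, the genes of the interleukin-1 cytokines, were 5.49 ± 0.26 and 4.33 ± 0.15 higher. In Il1a the esophageal arrays were at 5.63, 5.27 and 5.38, and marrow replicate 1 at 0.53 stood above the other marrow arrays at -0.41 and -0.30. Il6 was at 4.54, 3.37 and 3.53 against -0.08, -0.18 and -0.10, and was 3.93 ± 0.30 higher (adjusted p = 0.000714). Csf1, the growth factor of macrophages, was at 3.34, 2.48 and 3.58 against -0.04, -0.22 and -0.05 (difference 3.24 ± 0.28). Tnf was at 2.92, 1.30 and 2.70 against -0.39, -0.09 and -0.46, a difference of 2.62 ± 0.43 (adjusted p = 0.0103). Replicate 2 was thus the lowest esophageal array in Il6, Csf1 and Tnf, and in none of them did it reach the marrow arrays. Il4, the type 2 cytokine, was at 2.87, 2.36 and 3.06 against -0.12, -0.29 and 0.00 and was 2.90 ± 0.19 higher. Vegfa, the vascular growth factor, was 1.83 ± 0.21 higher. Il18, an interleukin-1 family cytokine, was lower, at -1.68, -1.17 and -1.52 against 1.89, 2.07 and 1.65 (difference -3.33 ± 0.17). Igf1, Tslp and Il12a were the other cytokine genes called lower.

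**Figure D3:**
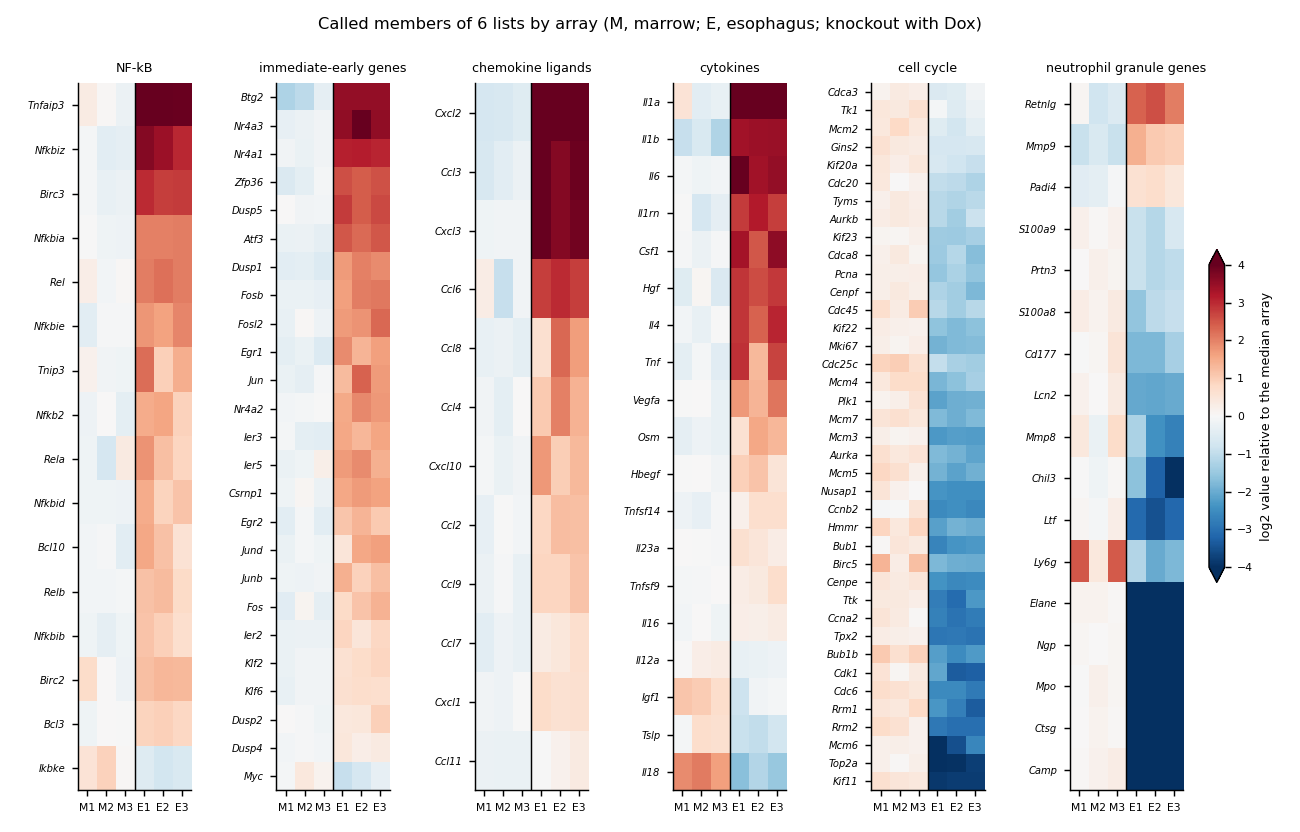
Colour gives the log2 value relative to the middle array (scale clipped at -4 and 4) for every called gene of 6 lists, in marrow arrays M1 to M3 and esophageal arrays E1 to E3 of the knockout with Dox. Only called genes are drawn, so the likeness of the 3 arrays of a tissue within a gene follows from that choice. Tnf (2.92, 1.30, 2.70 in the esophagus) is among the more variable ones.

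Lipid mediator genes changed in both directions. Of 21 prostaglandin and leukotriene genes, 8 were called higher and 5 lower. Besides Ptgs2 and Alox15, Pla2g7, which breaks down platelet-activating factor, was 3.42 ± 0.15 higher. Genes of enzymes that inactivate prostaglandins were among the lower ones. Hpgd, which oxidises prostaglandins, was at -1.62, -1.40 and -1.56 against 1.89, 1.66 and 1.53, a difference of -3.22 ± 0.11, and Ptgr1, which reduces prostaglandin and leukotriene products, fell by 3.58. Hpgds, the prostaglandin D2 synthase of blood cells, was at -1.38, -0.55 and -1.59 against 1.87, 1.61 and 0.56 (difference -2.52 ± 0.42). In Hpgds the highest esophageal array stayed below the lowest marrow array. Of 32 coagulation, fibrinolysis and matrix genes, 14 were called higher and 3 lower. After Serpinb2 and Thbs1 came Adamdec1, a metalloprotease, at 3.89 ± 0.09 and Adam8, a sheddase of leukocytes, at 3.49 ± 0.09.

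Genes known to respond to IL-4 and IL-13 were called higher in 11 of 31 cases and lower in 4, with a median of 0.31. Tgm2, a transglutaminase, was at 4.10, 4.03 and 3.90 against 0.04, -0.03 and -0.17, 4.07 ± 0.09 higher. Retnla, which encodes the secreted protein RELM-alpha, was at 2.73, 3.00 and 2.85 against -0.59, -1.33 and -0.55, 3.68 ± 0.22 higher. Arg1, arginase-1, was at 1.64, 1.31 and 0.37 against -0.32, -0.18 and 0.02. Its difference of 1.27 ± 0.33 (adjusted p = 0.0438) lost its call in 9 of the 16 alternatives (adjusted p of 0.054 to 0.13). Chil4 (1.67 ± 0.64, adjusted p = 0.121) and Postn (1.97 ± 0.67, adjusted p = 0.0903) did not pass, and Postn ranged from 0.30 to 3.00 among the esophageal arrays. Of 33 interferon response genes, 4 were called higher and 8 lower. Isg15, a ubiquitin-like modifier, was 2.12 ± 0.17 higher, and Oas1g, of the 2-5A synthetase family, differed by -2.35 ± 0.14, a call lost when all 17 arrays set the spread (adjusted p = 0.0978). Igtp, an interferon-gamma induced GTPase, differed by -1.10 ± 0.27 and lost its call in 7 of the 16 alternatives (adjusted p of 0.0673 to 0.228).

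Of 20 checkpoint ligands and costimulators, 5 were called higher and 0 lower. The share called in either direction was 25%, near the 20.1% of all genes. Cd274, which encodes PD-L1, was at 2.69, 3.08 and 3.08 in the esophagus and at -0.01, -0.16 and -0.33 in marrow, 3.12 ± 0.14 higher. Cd80, a ligand of CD28 and CTLA-4, was at 4.79, 4.19 and 4.08 against 0.57, 0.10 and 0.02, 4.13 ± 0.23 higher. No marrow array overlapped an esophageal array in either gene. Tnfsf9, also called higher (0.50), lost its call in 6 of the 16 alternatives (adjusted p of 0.0544 to 0.101). Vsig4, a complement receptor of macrophages that restrains T cells, was at -2.36 ± 0.69 (adjusted p = 0.0635). Of 9 genes of MHC class II presentation, 2 were called higher and 1 lower. The class II chain genes H2-Ab1 (1.16 ± 0.27) and H2-Aa (0.69 ± 0.15) were higher, and Ctss, the protease that trims the invariant chain, differed by -0.59 ± 0.15. H2-Ab1 and H2-Aa each lost the call in 7 of the 16 alternatives (adjusted p of 0.0602 to 0.101 and 0.0564 to 0.44), and Ctss in 6 (adjusted p of 0.0548 to 0.106). After quantile normalization H2-Ab1 was at 2.20 and H2-Aa at 1.34.

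Genes of cell division were lower together. Of 43 cell cycle and DNA replication genes, 0 were called higher and 39 lower, and all 43 differences were below 0, with a median of -2.33. The mean of the list ran from -1.87 to -1.75 in the esophageal arrays and from 0.35 to 0.45 in the marrow arrays. Mki67, the proliferation marker, was at -1.89, -1.75 and -1.74 against 0.24, 0.10 and 0.27, with means of -1.80 ± 0.08 and 0.20 ± 0.09 (SD, n = 3 each). Top2a, topoisomerase II, was at -3.98, -3.96 and -3.76 against 0.19, 0.05 and 0.24 (difference -4.06 ± 0.09). Kif11 was at -3.86, -3.80 and -3.80 against 0.64, 0.48 and 0.41. Mcm6, of the replicative helicase, fell by 3.65, and Rrm2, of ribonucleotide reductase, fell by 3.46. Rrm2 was at -2.14 with its lowest-numbered probe set alone. Cdkn3 (-1.31 ± 0.36, adjusted p = 0.0521) and Cdk2 (-0.49 ± 0.29, adjusted p = 0.279) did not pass. Markers of erythroid cells and progenitors moved with these genes, since 6 of 11 were called lower and 0 higher. Their mean over the list ran from -0.82 to -0.67 in the esophageal arrays and from 0.32 to 0.40 in the marrow arrays. Myb, a factor of blood progenitors, was at -3.47, -3.22 and -2.57 against 0.36, 0.37 and 0.48, a difference of -3.49 ± 0.23, and Kit, the stem cell factor receptor, differed by -1.94 ± 0.21. The part of precursors in the lower cell cycle values was not tested.

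The promoters of 2 of these genes are shown for the CCAAT box (CCAAT, searched on both strands), a motif common in promoters of mitotic genes. It was found in 27 of the 32 lower cell cycle genes that have a window (84.38%), in 46.23% of genes called lower by at least 1 log2 unit (405 of 876) and in 37.49% of all genes. The TTTGAA element was in 9 of the 32 (28.12%, against 18.26% of all genes), and the E2F motif TTTCCCGC in 2. Kif11 lies at chr19:37376132-37376381 (plus strand) with a CCAAT box 45 to 41 bases before the start, read on the other strand as ATTGG. Top2a lies at chr11:99024190-99024439 (minus strand) with 6 boxes. Capitals mark the boxes.
Kif11: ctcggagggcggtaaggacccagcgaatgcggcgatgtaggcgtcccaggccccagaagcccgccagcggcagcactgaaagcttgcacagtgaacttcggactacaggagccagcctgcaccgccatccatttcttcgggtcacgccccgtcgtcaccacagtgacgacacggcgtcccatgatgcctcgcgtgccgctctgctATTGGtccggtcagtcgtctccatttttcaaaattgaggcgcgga
Top2a: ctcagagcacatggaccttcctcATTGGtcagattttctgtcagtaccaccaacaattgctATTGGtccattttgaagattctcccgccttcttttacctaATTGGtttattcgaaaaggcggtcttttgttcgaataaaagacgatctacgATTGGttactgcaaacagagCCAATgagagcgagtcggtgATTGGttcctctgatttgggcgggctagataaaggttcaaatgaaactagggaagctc

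Of 24 genes of the BCL-2 family and cell death, 8 were called higher and 1 lower. Fas, the death receptor, was at 3.37, 3.01 and 3.11 against 0.34, -0.01 and -0.66, 3.27 ± 0.26 higher. Bcl2l11, which encodes the death-promoting protein BIM, was 2.68 ± 0.15 higher, Cdkn1a, the cell cycle inhibitor p21, 2.66 ± 0.10, and Gadd45b, a stress gene, 2.62 ± 0.18. Bcl2, the survival protein, was at -0.64 ± 0.20 and did not pass (adjusted p = 0.0711).

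Of 35 subunits of oxidative phosphorylation, 0 were called higher and 25 lower, with a median of -0.70. Ndufa9, of complex I, was at -1.95, -1.23 and -1.76 against 0.43, 0.27 and 0.26 (difference -1.96 ± 0.19), with the call lost when all 17 arrays set the spread (adjusted p = 0.0539), a setting in which 5 of the 35 were called lower. Ndufv2, also of complex I, differed by -1.70 ± 0.14. Of 40 cytosolic ribosomal protein genes, 2 were called higher, 15 lower and 23 not, and in the 17-array setting 1 was called higher and 5 lower. Rpl14 (-1.89 ± 0.21), Rpl32 (-1.78 ± 0.22) and Rpl15 (-1.78 ± 0.18) were the lowest of those called, and all lost the call in that setting (adjusted p = 0.159, 0.137 and 0.146). Of 26 genes of endoplasmic reticulum folding and the unfolded protein response, 3 were called higher and 16 lower. The chaperone gene Calr was at -1.88, -1.41 and -1.34 against 0.26, 0.31 and 0.46 (difference -1.89 ± 0.16). Ppp1r15a, which restores translation after stress, was higher, at 2.89, 2.89 and 2.71 against -0.18, -0.35 and -0.09 (difference 3.04 ± 0.09). Ddit3, the stress factor CHOP, was 1.20 ± 0.11 higher. Of 12 housekeeping genes, 0 were called higher and 6 lower, with Gusb at -1.34 ± 0.17 and Actb at 0.55 ± 0.26 (adjusted p = 0.186). With all 17 arrays setting the spread, 0 of the 12 were called, and Gusb had an adjusted p of 0.0612.

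Among 31 glycolysis and hypoxia genes, 7 were called higher and 5 lower, with a median of 0.08. Hif1a, the hypoxia factor, was at 1.95, 1.82 and 1.75 against 0.04, -0.06 and 0.01, 1.84 ± 0.07 higher, and Slc16a3, a lactate exporter, was 2.46 ± 0.07 higher. Hk3, a hexokinase of myeloid cells, differed by -1.85 ± 0.14. Of 26 redox genes, 10 were called higher and 5 lower. Hmox1, heme oxygenase-1, was at -1.72, -1.48 and -1.55 against 1.04, 1.30 and 0.62, a difference of -2.57 ± 0.18, opposite in sign to the cystine transporter gene Slc7a11. Of 14 genes of itaconate, arginine and polyamine metabolism, 5 were called higher and 2 lower. Behind Acod1 came Arg2, mitochondrial arginase, at 1.22 ± 0.10, while Slc7a5, a large amino acid transporter, differed by -1.79 ± 0.30. Nos2 differed by 0.19 ± 0.11 (adjusted p = 0.247). Of 27 lysosome and proton pump genes, 1 was called higher, Ctsh at 1.49 ± 0.16, and 11 lower, led by Ctsb at -1.94 ± 0.16, whose call was lost when all 17 or the 12 Dox arrays set the spread (adjusted p = 0.179 and 0.0578). In the 17-array setting 1 of the 27 was called higher and 2 lower.

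Markers of other cells of the marrow and of the esophagus differed between the same arrays. Of 22 neutrophil granule genes, 14 were called lower in the esophagus and 3 higher, and the list mean ran from -1.91 to -1.67 in the esophageal arrays and from -0.01 to 0.27 in marrow. Ngp, a neutrophil granule protein, was at -4.98, -4.89 and -5.08 against 0.08, 0.01 and 0.08 (difference -5.04 ± 0.07), and Elane, neutrophil elastase, fell by 4.54. Retnlg (2.75 ± 0.26), Mmp9 (1.94 ± 0.15) and Padi4 (0.89 ± 0.13) were the neutrophil-list genes called higher. Of 22 monocyte and macrophage markers, 13 were called lower and 3 higher, with list means of -0.46 to -0.37 in the esophagus and 0.36 to 0.74 in marrow. Mertk, a receptor for dying cells, was at -1.55, -1.71 and -0.97 against 2.08, 1.73 and 1.14, a difference of -3.06 ± 0.29. The monocyte antigen gene Ly6c2 was at -2.36, -4.38 and -3.98 against 0.65, -0.01 and 0.01, a difference of -3.79 ± 0.54, and the complement gene C1qa differed by -1.06 ± 0.19. Marrow replicate 1 had the highest value of the group in Mertk, Ly6c2 and C1qa. Of 16 mast cell and basophil markers, 4 were called lower, with Cpa3, mast cell carboxypeptidase, at -3.97 ± 0.13, and 2 were called higher. Differences were above 0 in 8 of the 16 and ran from -4.37 to 1.07. The median of this list, 0.01, turned to -0.03 under both other scalings, and its mean ran from -0.63 to -0.52 in the esophagus and from 0.02 to 0.14 in marrow. Of 17 lymphocyte and NK cell markers, 2 were called higher and 3 lower, with a median of -0.06 and list means of -0.30 to -0.17 in the esophagus and 0.03 to 0.07 in marrow. Nkg7, a granule protein of cytotoxic cells, was at -3.47, -3.50 and -3.59 against 0.63, 0.62 and 0.48 (difference -4.10 ± 0.07). Cd3e, of the T cell receptor complex, was 0.25 ± 0.07 higher (adjusted p = 0.0459) and lost that call in 11 of the 16 alternatives (adjusted p of 0.0524 to 0.459). The other called genes of this list, Gzma, Cd8a and Cd79b, lost the call in 12, 4 and 3 alternatives, while Nkg7 kept it in all.

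Among markers of esophageal tissue cells, the shares called higher were 9.52% for squamous epithelium, 13.3% for fibroblasts and smooth muscle and 16.7% for endothelium, beside 9.73% of all genes. Of 21 squamous epithelial markers, 2 were called higher and 0 lower, and 18 differences were above 0, with a median of 0.22 and list means of 0.09 to 0.25 in the esophagus and -0.16 to -0.08 in marrow. Sprr1a, of the cornified envelope, was at 2.62, 2.11 and 0.56 against -0.38, -0.24 and -0.33, a difference of 2.08 ± 0.51 (adjusted p = 0.0385). Krt13, a keratin of the esophageal lining, was at 1.21, 0.68 and 0.25 against -0.27, -0.23 and -0.28, a difference of 0.97 ± 0.23 (adjusted p = 0.0353). In both genes esophageal replicate 1 was the highest array and replicate 3 the lowest, and the calls were lost in 9 and 5 of the 16 alternatives (adjusted p of 0.0586 to 0.11 and 0.0564 to 0.102). Krt5, a basal keratin, was not analysed here. Of 15 fibroblast and smooth muscle markers, 2 were called higher and 0 lower, and 14 differences were above 0, with a median of 0.50 against 0.06 over all genes and list means of 0.28 to 0.65 in the esophagus and -0.16 to -0.09 in marrow, and the collagen gene Col3a1 was 0.59 ± 0.08 higher. Of 12 endothelial markers, 2 were called higher, Pecam1 and the lymphatic marker Lyve1 (1.03 ± 0.08), and 0 lower, with list means of 0.16 to 0.23 against -0.12 to -0.09. Of 10 dendritic cell markers, 3 were called higher and 1 lower, with list means of 0.37 to 0.53 against -0.06 to -0.04, and Itgax leads that list as it does the integrins. Of the called genes only Itgax kept its call in all 16 alternatives. Xcr1 and Cd209a each lost it in 5 (adjusted p of 0.0531 to 0.0948 and 0.0529 to 0.409). Bst2, the gene called lower, lost it in 11 (adjusted p of 0.0547 to 0.111). Since centred values do not show whether a marker is absent, and the same markers differ in level between these arrays, the part of other cells in any gene named here was not tested.

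Genes that tell the sexes apart were not called in the knockout, as Xist, the X-inactivation RNA, was at 0.07 ± 0.06 (adjusted p = 0.462) and Eif2s3y, a Y-linked gene, at 0.71 ± 0.26 (adjusted p = 0.11). Among the esophageal arrays Eif2s3y was at 1.12, 0.68 and 0.07, and Kdm5d, also Y-linked, at 1.10, 0.37 and -0.29, with replicate 3 the lowest in both. When the average of Eif2s3y, Kdm5d and Uty entered as a covariate, 4857 genes were called, 2541 higher and 2316 lower. In wildtype, Kdm5d (-1.17 ± 0.28, adjusted p = 0.0477) and Uty (-1.02 ± 0.24, adjusted p = 0.0433) were called lower in the esophagus, and with the same covariate 1060 wildtype genes were called in place of 2988.

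In wildtype littermates 2988 genes (13.5%) were called between the tissues, 1428 (6.44%) higher in the esophagus and 1560 (7.03%) lower, and in 10214 genes (46.1%) the arrays of the tissues did not overlap. Of the genes called higher in the knockout, 614 were also called higher in wildtype, which is 28.5% of the knockout calls and 43.0% of the wildtype calls. Of the genes called lower in the knockout, 1121 were also called lower in wildtype (48.9% and 71.9%). Difference signs matched in 2029 of the 2158 higher knockout calls and in 2222 of the 2293 lower ones. Matching signs over all genes were not counted, and 63.6% of all knockout differences were above 0. The matches are thus not shown to be particular to called genes. The wildtype count changed with scaling and when single arrays were left out, which also leaves fewer arrays to set the spread. It was 4668 without esophageal replicate 1, 2014 without replicate 2 (789 of them higher) and 1538 without replicate 3, and 832, 994 and 1070 without marrow replicate 1, 2 or 3. Median centring moved the wildtype median over all genes from 0.14 to 0.03 and the share of higher calls from 47.8% to 26.8%, and quantile normalization gave 19.6%. Epx was 3.50 lower in either genotype, and Ptgs2 was higher by 5.98 in the knockout and 5.94 in wildtype.

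**Figure D4:**
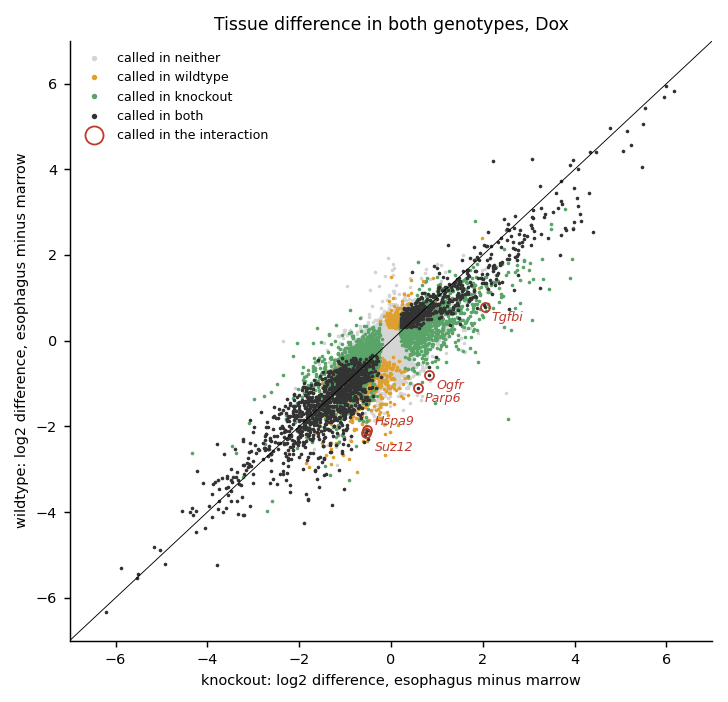
Each point is a gene; the x axis is its log2 difference, esophagus minus marrow, in the knockout and the y axis the same in wildtype littermates, with the line of equality and colours for the calls. Most called genes have the same sign in both, and the 5 ringed genes, among them Parp6 (0.58 and -1.10), are those whose tissue difference differed between genotypes.

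Whether the tissue difference itself differed between genotypes was tested as an interaction over the 12 Dox arrays. It was called for 5 of 22180 genes (0.0225%), all with the higher difference in the knockout, while 1979 genes had an unadjusted p under 0.05. Parp6, an ADP-ribosyltransferase, was at 0.56, 0.77 and 0.84 in the knockout esophagus and at 0.07, 0.19 and 0.15 in knockout marrow, 0.58 ± 0.09 higher. In wildtype it was at -1.11, -0.98 and -1.12 against 0.01, -0.01 and 0.11, so the esophageal arrays of the genotypes lay on opposite sides of marrow. The interaction was 1.69 ± 0.12 (adjusted p = 0.000994). Tgfbi, a matrix protein named for its induction by TGF-beta, was at 1.79, 1.83 and 1.80 against -0.12, -0.31 and -0.26 in the knockout, and at 0.83, 0.66 and 0.84 against 0.01, -0.01 and -0.03 in wildtype, an interaction of 1.25 ± 0.10 (adjusted p = 0.00169). Suz12, of the Polycomb complex PRC2, fell by 0.55 in the knockout and by 2.16 in wildtype, an interaction of 1.60 ± 0.18 (adjusted p = 0.0273). Hspa9, the mitochondrial chaperone mortalin, fell by 0.52 and 2.09 (interaction 1.57 ± 0.19, adjusted p = 0.0427). Ogfr, the opioid growth factor receptor, was 0.84 ± 0.14 higher in the knockout and differed by -0.80 ± 0.12 in wildtype (interaction 1.64 ± 0.19, adjusted p = 0.0336). The knockout difference on its own lost its call in 3 of the 16 alternatives for Ogfr (adjusted p of 0.0539 to 0.0969), in 4 for Suz12 (0.0527 to 0.0583), and with all 17 arrays setting the spread for Parp6 (adjusted p = 0.161) and Hspa9 (adjusted p = 0.654). Of 19 alternatives of the interaction, Parp6 and Tgfbi each kept the call in 16, Suz12 in 9, Ogfr in 7 and Hspa9 in 5, and its sign did not change in any of these genes. The mean of Eif2s3y, Kdm5d and Uty as a covariate, added after the data were seen, left 2 calls, Parp6 (1.80 ± 0.11, adjusted p = 0.000877) and Tgfbi (1.22 ± 0.11, adjusted p = 0.0166). After quantile normalization the interaction was 1.11 in Parp6, 0.77 in Suz12 and 0.77 in Hspa9. In the fits to each genotype, Ogfr, Parp6, Mvb12b and Ptpn22 were the genes called higher in the knockout and lower in wildtype, and no gene was called the other way round.

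The larger gaps between genotypes in genes named above did not pass this test. Adamdec1 differed by 3.89 between tissues in the knockout and by 1.46 in wildtype (interaction 2.44 ± 0.42, adjusted p = 0.146), and Ikzf2 by 1.89 and -0.49 (interaction 2.39 ± 0.48, adjusted p = 0.273). The count of interaction calls changed when single arrays were left out. It was 207 without wildtype esophageal replicate 1, 17 without replicate 2 and 10 without replicate 3. It was 18 without knockout esophageal replicate 3, 2 without replicate 1, and 2 to 4 without a marrow array of either genotype. With the replicate block, and after quantile normalization, 0 genes were called in limma, beside 2001 and 1322 genes at an unadjusted p under 0.05.

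**Figure D5:**
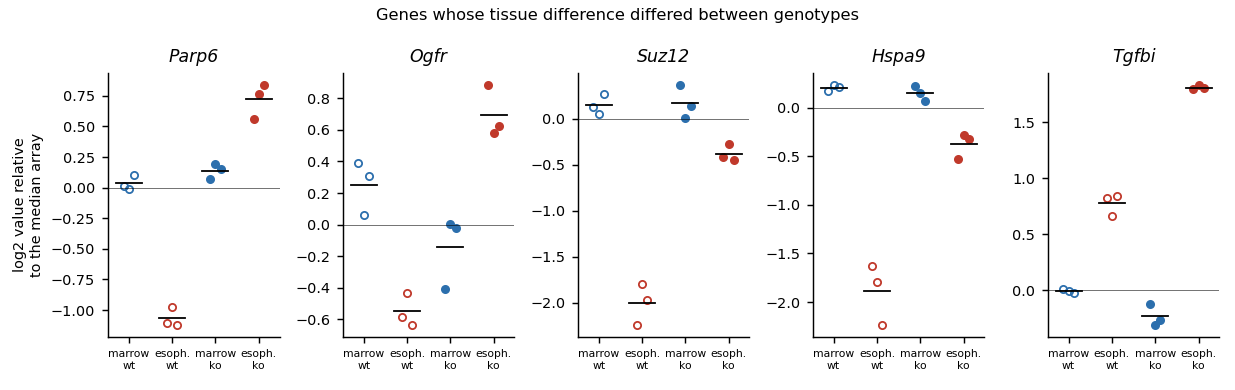
Points are single arrays (open, wildtype; filled, knockout; blue, marrow; red, esophagus; 3 per group, all with Dox), bars are means, and the y axis is the log2 value relative to the middle array, with its own scale in each panel. In Parp6 and Ogfr the knockout esophageal arrays lie above marrow and the wildtype ones below it, while Suz12 and Hspa9 fell further in wildtype and Tgfbi rose further in the knockout.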

How the data were processed

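RNA of sorted eosinophils was hybridised to Affymetrix 1-colour arrays after amplification with the Nugen Ovation One-Direct system, per the labels' protocols. The submitters' processing notes list Affymetrix Expression Console, without a version, and no source used here gives its summarization or normalization settings. The authors deposited log2 values per probe set (33793) and array; the base of the logarithm is not stated and is taken as 2. Each probe set is centred: in 97.08% of them 0 lies midway between adjacent array values (tolerance 2e-05), as for a median over 18 arrays, 17 of which are analysed here. A difference between arrays is not changed by this centring. Quantile normalization, an alternative below, was run on the centred values and so evens out the unlike spreads of esophageal and marrow arrays. Centring removes brightness, so no filter on dim probes could be applied. All 17 array columns were mapped through sample titles and 0 were left unused.

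Gene symbols came from the platform annotation: 23521 probe sets had 1 symbol, 1814 several and 8458 none. Of the first, 23328 were found in a gene table of assembly GRCm38.p6. They gave 22180 genes, and 1082 genes with several probe sets were averaged. Limma 3.58.1 in R 4.3.3 (lmFit and eBayes) was fitted to the 6 knockout Dox arrays, to the 6 wildtype Dox arrays, and to all 12 for the interaction. Tests were two-sided with Benjamini-Hochberg adjustment over all genes and a threshold of 0.05, and the code was tested on simulated data. Errors of differences are standard errors and errors of group means are SDs. The number of arrays limits the precision.

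The comparison, the 40 gene lists (838 genes measured, 89 not analysed here, some in several lists), the naming rule and the motifs were chosen with earlier results of these data known. Lists are described by counts of called members and medians, without a set test. The rule named the 12 highest and 12 lowest called genes with a usual symbol and no overlap between the arrays of the tissues. It also named up to 4 called and 2 other members of each list by size of difference. It further took a fixed set of identity, cytokine and control genes, and up to 5 interaction genes each way. Named outside it, after their values were seen, were Clec4a2, Ikbke, Myc, Il4, Igf1, Tslp, Il12a, Retnlg, Mmp9, Padi4, Mvb12b, Ptpn22, Hpgd, Hpgds, Uty and the genes listed as holding a motif.

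Alternatives were the arrays that set the spread, median centring, quantile normalization, the lowest-numbered probe set, array weights, a robust variance prior, the replicate number as a block, the mean of Eif2s3y, Kdm5d and Uty as a covariate (Ddx3y, also intended, was not analysed here; for the interaction this covariate was chosen after seeing the data), and leaving out each array.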

Additional observations from a re-analysis of the deposited data

Results flagged for a closer look

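In 5 genes the tissue difference of the knockout differed from that of wildtype littermates by a test of the difference itself, limma's interaction term over 12 arrays. The knockout difference exceeded the wildtype difference by 1.69 log2 units in Parp6 (adjusted p = 0.000994), by 1.64 in Ogfr (adjusted p = 0.0336), by 1.60 in Suz12 (adjusted p = 0.0273), by 1.57 in Hspa9 (adjusted p = 0.0427) and by 1.25 in Tgfbi (adjusted p = 0.00169). In Parp6 and Ogfr the difference changed sign between genotypes, with all 3 esophageal arrays above marrow in the knockout and all 3 below it in wildtype. In Suz12, Hspa9 and Tgfbi the sign was shared. Of 19 alternatives, the call was kept in 16 for Parp6 and Tgfbi, 9 for Suz12, 7 for Ogfr and 5 for Hspa9. With the replicate block, and after quantile normalization, limma called 0 genes, beside 2001 and 1322 at an unadjusted p under 0.05.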

How the results depend on the processing

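In the knockout, 4451 genes were called in the values as deposited and 2336 with all 17 arrays setting the spread, 2160 of them shared. Leaving out single arrays gave 2760 to 3884, and the counts without marrow replicates 1 and 3, 2760 and 2804, differed from 4451 by over 1.5 times. The other 9 settings stayed within that factor. In wildtype, against 2988, calls rose to 8092 with 16 arrays setting the spread, 7117 with the 12 Dox arrays and 6015 with array weights, and fell to 1619 after quantile normalization and 1060 with the Y-linked covariate. Leaving out single wildtype arrays gave 832 (marrow replicate 1) to 4668 (esophageal replicate 1). For the interaction, against 5, the count was 1 with all 17 arrays and 0 in limma after quantile normalization (1322 at an unadjusted p under 0.05), 2 with the Y-linked covariate, chosen after seeing the data, and 2 to 207 with single arrays left out. Why these counts moved was not tested.

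Same-numbered esophageal and marrow arrays deviated from their group means with r of 0.02, -0.06 and -0.03 in the knockout and 0.12, -0.04 and 0.04 in wildtype, across genes, so the replicate numbers were not taken as pairs. With the replicate block, 3206 genes were called in the knockout (1322 higher), 1195 in wildtype (281 higher) and 0 in the interaction (2001 at an unadjusted p under 0.05).

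Of 240 named genes, 162 were called in the knockout. Of these, 119 stayed called under all 16 settings and 43 lost the call in at least 1, and none of the 162 changed direction. Quantile normalization moved 18 of the 162, and the lowest-numbered probe set 3, by more than 1.5 times. Changes of direction or size in the named genes that were not called were not counted. Each group has 3 arrays, signal over background is unknown, and a gene that did not pass is not shown to be equal between the tissues.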
